A study of Mus musculus with 8 samples.

Results

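Hepatic fat is kept in lipid droplets, and 10 genes that build, coat, enlarge or empty these droplets were followed here across 4 livers of mice on a standard chow (STD) diet and 4 livers of mice on an atherogenic (ATH) diet. They were Plin2 and the CIDE genes Cidec, Cidea and Cideb on the droplet surface, Mogat1, Dgat1 and Dgat2 in triglyceride synthesis, Pnpla2 in lipolysis, and Pparg with the fatty acid binding protein Fabp4. A probe counted as belonging to a gene when the array files gave that gene's symbol, or the older name Adfp for Plin2, for a non-control spot. This gave 18 probes for the 10 genes among 41174 probes in all, and all 18 were detected, as were 31053 of all probes, which means a signal above background on 3 or more arrays within a diet.

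All mice were wild-type males on a C57BL/6 background, aged 14 to 17 weeks when feeding began, and none carried a transgene or a deletion. The STD group (n = 4) was administered chow and the ATH group (n = 4) a diet rich in fat and cholesterol that also contained cholic acid, a bile acid, in both cases for 4 weeks. Each array held RNA from whole liver of 1 mouse, labelled with Cy3 and hybridised to a whole mouse genome array in 1 colour. Each diet had a slide to itself, and an effect of the slide therefore cannot be told apart from that of the diet in any comparison below.

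As background, hepatocytes esterify fatty acids to triglyceride in the endoplasmic reticulum, where acyl chains are added step by step to a glycerol backbone. The triglyceride leaves the membrane as a droplet, which perilipins coat, CIDE proteins help to fuse and enlarge, and lipases break down again. PPAR-gamma, the product of Pparg, is a nuclear receptor that drives fat storage in adipocytes, and in fatty livers of obese mice it is known for raising genes such as Cidec, Cidea, Mogat1 and Fabp4. The question asked of these arrays was whether the storage genes moved with the ATH diet, and whether they moved together.

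Values below are log2 signals of a probe after the array's 75th percentile was subtracted, so that 1 unit is a doubling and 0 is the 75th percentile of that array. Between 72.3% and 77.8% of spots on an array were well above background. The 75th percentile itself was higher on the ATH arrays than on the STD arrays by 0.4467 on the log2 scale, and the spike-in controls by 0.1359. On the scaled values the median log2 fold change (ATH minus STD) over 16557 named genes was -0.14, against 0.31 without scaling and 0.17 with scaling to the spike-in controls. A fold change near -0.4 is therefore near 0 without scaling. The defining hepatocyte genes were detected in all cases (10 of 10), with Alb and Apoa1 among them, and their summed linear level was 3858 to 3937 on the STD arrays and 2544 to 3431 on the ATH arrays. Alb was saturated on 2 arrays, and while all 10 had a lower mean on the scaled values, 3 of 10 did without scaling or with quantile normalization. Because the tissue is bulk liver, fewer cells of a type and less RNA per cell cannot be told apart.

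Pparg and Mogat1 were lower on the ATH diet and passed the test, and no storage gene rose by it. The remaining 8 genes did not pass, although 7 of them had a lower mean on the ATH diet, with log2 fold changes from -0.52 for Cidea to -0.10 for Cidec. Fabp4 was the exception in direction, with a log2 fold change of 0.58 and all ATH arrays above all STD arrays. With 1 probe per gene, the brightest over all 8 arrays, 2 of the 10 genes were called by limma at a Benjamini-Hochberg adjusted p under 0.05, both lower. Over all 16557 genes 9.35% were called, 5.3% as lower and 4.05% as higher. At the stricter rate of 0.01 the count was 0 of 10, beside 0.64% of all genes, and at an unadjusted p under 0.05 it was 6 of 10, beside 30.6% of all genes. Of the 10 genes 9 had a lower mean on the ATH diet, beside 65.1% of all genes. Without scaling 3 of the 10 did, beside 18.3% of all genes. The median log2 fold change of the 10 genes was -0.42, against -0.20 with quantile normalization and 0.03 without scaling. Relative to the median of all genes, 8 of the 10 lay below it and Cidec and Fabp4 above it.

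**Figure D1:**
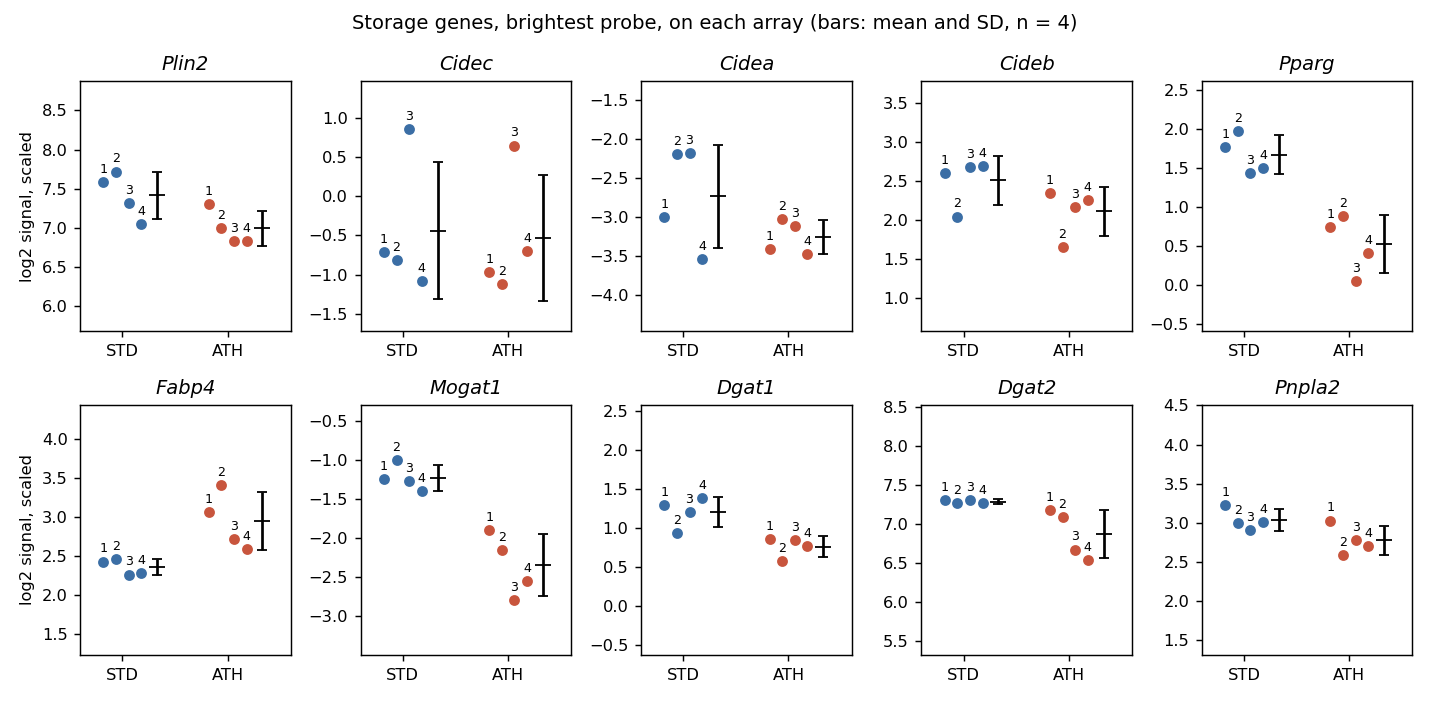
Scaled log2 signal of the brightest probe of each of the 10 storage genes on each array, with STD arrays in blue and ATH arrays in red, the replicate number above each point and the mean with its SD (n = 4) in black; every panel spans the same number of log2 units. The ATH arrays lie wholly below the STD arrays for Pparg, Mogat1, Dgat1 and Dgat2, wholly above for Fabp4, and replicate 3 of both diets stands high for Cidec.

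Pparg encodes the nuclear receptor PPAR-gamma. Its probe is printed at 10 places on each array, which were averaged. The level was 1.77, 1.97, 1.44 and 1.5 on STD replicates 1 to 4, and 0.75, 0.89, 0.05 and 0.42 on ATH replicates 1 to 4. The lowest STD array lay above the highest ATH array. Its mean under STD feeding was 1.67 ± 0.25 (SD, n = 4), against 0.53 ± 0.37 (SD, n = 4) under ATH feeding. The log2 fold change was -1.15 (SE 0.21, limma adjusted p = 0.0208), so the signal fell by 54.8%. Relative to the median of all genes the change was -1.01. The direction was the same under 5 other scalings of the arrays and the gene was called in all 5, with log2 fold changes from -1.18 to -0.70. Without STD replicate 1, 3 or 4, or without ATH replicate 4, the adjusted p by limma was between 0.0517 and 0.0658, with fold changes from -1.22 to -1.11. The unequal-variance test that the methods name, run on the same values across all detected probes, gave an adjusted p of 0.103 for Pparg and 0.125 for Mogat1, and called 22 probes in all at 0.05.

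Mogat1 encodes a monoacylglycerol acyltransferase, which makes the diacylglycerol that the DGAT enzymes turn into triglyceride. The 3 probes A_52_P64376, A_51_P112151 and A_52_P364021 read this gene. The sequences of the last 2 named are shown because their fold changes, given after them, differ from that of the brightest probe. Both are listed on the part of chromosome 1 that the older mm7 assembly had not placed (1_random), A_52_P364021 at 9619731 to 9619790 and A_51_P112151 at 9628526 to 9628585, on the plus strand. Each is 60 bases long and reads through in at least 1 frame with no stop codon. No part of them is marked by capitals.
Mogat1, A_52_P364021: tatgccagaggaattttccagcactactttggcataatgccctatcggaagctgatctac
Mogat1, A_51_P112151: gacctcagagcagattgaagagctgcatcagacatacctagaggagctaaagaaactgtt

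On the brightest of these probes, A_52_P64376, Mogat1 stood at -1.25, -1.0, -1.27 and -1.4 on STD replicates 1 to 4, and at -1.90, -2.16, -2.79 and -2.55 on ATH replicates 1 to 4. The 2 diets did not overlap. Their means were -1.23 ± 0.17 (SD, n = 4) and -2.35 ± 0.40 (SD, n = 4). The log2 fold change was -1.12 (SE 0.20, limma adjusted p = 0.0205). Probe A_51_P112151 gave -1.35 (SE 0.22, limma adjusted p = 0.0156). Probe A_52_P364021 gave -1.97 (SE 0.30, limma adjusted p = 0.0137), with STD arrays at -2.85, -2.60, -2.80 and -3.27 and ATH arrays at -4.24, -4.60, -4.81 and -5.74. It was well above background on 7 of the 8 arrays, ATH replicate 4 being the exception. All 3 probes kept the direction and the call under the 5 other scalings. As for Pparg, the call on the brightest probe was lost when any 1 of 4 arrays was left out: without STD replicate 1, 3 or 4 or ATH replicate 4 the limma adjusted p was between 0.0512 and 0.061.

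Fabp4 encodes the fatty acid binding protein of adipocytes, which macrophages and capillary endothelium also make. On its brightest probe, A_51_P336833, the STD arrays held 2.43, 2.46, 2.26 and 2.29 and the ATH arrays 3.07, 3.41, 2.72 and 2.59. The diets did not overlap, and ATH replicates 1 and 2 were the highest. The means were 2.36 ± 0.10 (SD, n = 4) and 2.94 ± 0.37 (SD, n = 4). The log2 fold change of 0.58 (SE 0.19, 95% interval 0.16 to 1.0) did not pass, with a limma adjusted p of 0.0839. The other probes gave the like size, 0.60 for A_51_P336830 (limma adjusted p = 0.0677) and 0.60 for A_52_P564544 (limma adjusted p = 0.125). On A_52_P564544 the diets overlapped, with ATH replicate 4 at -3.52 and STD replicate 2 at -3.37. The brightest probe passed with quantile normalization (0.71, limma adjusted p = 0.0412), with spike-in scaling (0.89, limma adjusted p = 0.0171), without scaling (1.03, limma adjusted p = 0.00833) and with normexp background correction (0.55, limma adjusted p = 0.0379). It did not pass with arrays paired by number (limma adjusted p = 0.0696) or by the unequal-variance test (adjusted p = 0.213). With any 1 array left out the limma adjusted p was between 0.0883 and 0.18. Probe A_52_P564544 is listed at chr3:10216627-10216686 of mm7, on the minus strand, and is shown because it reads a part of the transcript far from the other probes, which lie between 10212636 and 10213447.
Fabp4, A_52_P564544: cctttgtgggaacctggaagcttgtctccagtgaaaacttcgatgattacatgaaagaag

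Markers of other cells that express Fabp4 were read on the same arrays. Of 14 macrophage genes all 14 had a higher mean on the ATH diet and 7 were called. The 7 were Gpnmb, Marco, Trem2, Cd14, Lyz2, Cd68 and Mpeg1, of which Cd14 and Cd68 did not pass once arrays were paired by number (limma adjusted p = 0.0524 and 0.0551). The summed linear level over the 14 genes was 78.9 to 106 on the STD arrays, and 278, 151, 671 and 740 on ATH replicates 1 to 4. Fabp4 was highest where that sum was lowest within the ATH diet, on replicate 2. Of 6 endothelial genes 1 was called, Lyve1 (log2 fold change 1.21, limma adjusted p = 0.0361). Their sum was 7.06 to 8.89 on the STD diet, and 11.6, 11.3, 7.73 and 9.92 on ATH replicates 1 to 4. Within the ATH diet it was highest on replicates 1 and 2, as was Fabp4. Of 8 adipocyte genes Lep, Adrb3 and Ucp1 were not detected. The sum over the other 5 was 0.576 to 1.88 on the STD diet and 0.908 to 1.04 on the ATH diet, and the defining gene Adipoq had a log2 fold change of -0.61 (limma adjusted p = 0.0766). Slc2a4, the insulin-responsive glucose transporter of fat and muscle, was the only adipocyte-list gene called (2.03, limma adjusted p = 0.00377). It was also the only 1 of the 5 with a higher mean on the ATH diet. The other 4 had a lower mean, beside 65.1% of all genes, and 3 of the 5 did without scaling. Of 8 stellate cell genes 0 were called by limma, with 2 at an unadjusted p under 0.05, beside the same 30.6% of all genes. The part of these cells in the levels of Fabp4, Pparg or Mogat1 was not tested.

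**Figure D2:**
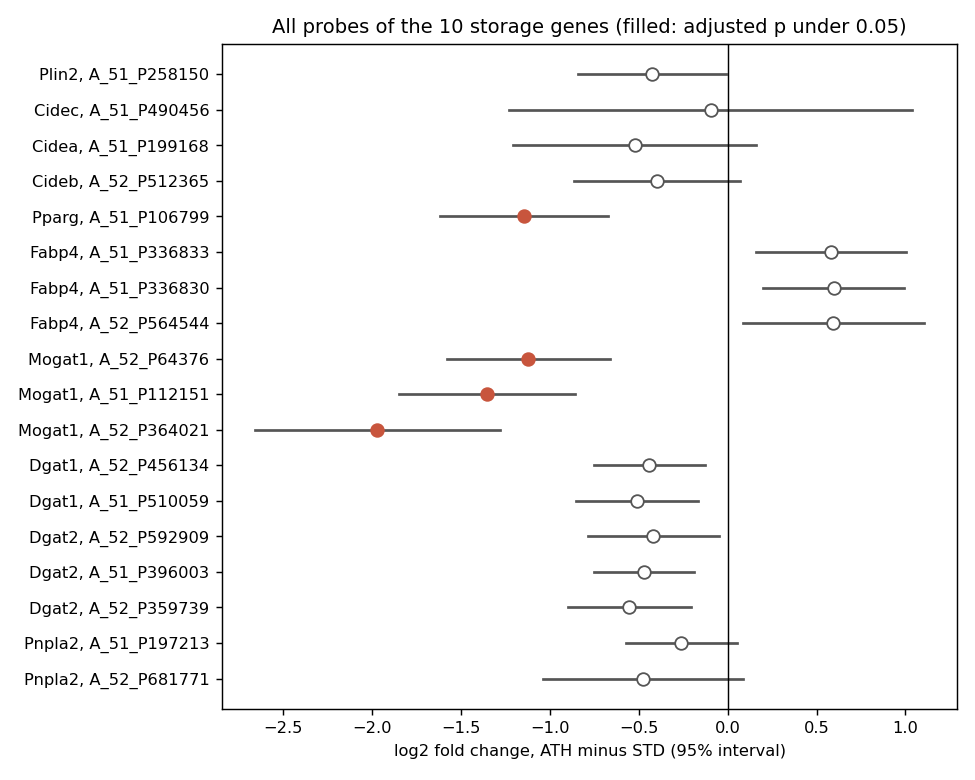
Log2 fold change (ATH minus STD) of each of the 18 probes of the storage genes with its 95% interval from limma; filled points passed an adjusted p under 0.05. The Pparg probe and the 3 Mogat1 probes passed, the 3 Fabp4 probes lie to the right of 0, and the remaining 11 probes lie to the left without passing.

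Dgat1 and Dgat2 encode 2 unrelated enzymes that both add the last acyl chain of triglyceride. Dgat2 stood at 7.31, 7.26, 7.31 and 7.27 on the STD arrays and 7.18, 7.08, 6.67 and 6.54 on the ATH arrays of probe A_52_P592909. The STD arrays were nearly alike (SD 0.03), while the ATH arrays spread more widely (SD 0.31), replicates 3 and 4 being the lowest. The log2 fold change of this probe was -0.42 (SE 0.16, limma adjusted p = 0.134). Probes A_51_P396003 and A_52_P359739 gave -0.47 (limma adjusted p = 0.0513) and -0.55 (limma adjusted p = 0.0579). Dgat1 stood at 1.29, 0.94, 1.20 and 1.38 on the STD arrays and at 0.86, 0.57, 0.84 and 0.77 on the ATH arrays of probe A_52_P456134. Its log2 fold change was -0.44 (SE 0.14, limma adjusted p = 0.081), and that of probe A_51_P510059 was -0.51 (limma adjusted p = 0.0711). For both genes the diets did not overlap on any probe, yet without scaling the fold changes of the brightest probes were 0.01 for Dgat1 and 0.03 for Dgat2. Over all genes, arrays of the diets did not overlap with a lower ATH level in 14.6% and with a higher one in 7.59%. Of the 10 storage genes 4 lay wholly lower and 1, Fabp4, wholly higher.

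Pnpla2 encodes adipose triglyceride lipase, which takes the first acyl chain off stored triglyceride. It stood at 3.23, 3.0, 2.91 and 3.01 on the STD arrays and at 3.03, 2.59, 2.78 and 2.70 on the ATH arrays of probe A_51_P197213. The diets overlapped through ATH replicate 1. The change was -0.26 on the log2 scale (SE 0.14, 95% interval -0.57 to 0.05, limma adjusted p = 0.245). Probe A_52_P681771 gave -0.48 (SE 0.25, limma adjusted p = 0.239). The brightest probe turned to 0.19 when arrays were not scaled and to 0.05 when they were scaled to the spike-in controls.

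Plin2 encodes the perilipin that coats most hepatocyte droplets and is commonly read as a mark of stored fat. It stood at 7.59, 7.72, 7.31 and 7.04 on the STD arrays and at 7.31, 6.99, 6.83 and 6.83 on the ATH arrays. STD replicate 4 lay below ATH replicate 1, so the diets overlapped. The means were 7.42 ± 0.30 (SD, n = 4) and 6.99 ± 0.22 (SD, n = 4). The log2 fold change was -0.42 (SE 0.18, 95% interval -0.84 to -0.01, limma adjusted p = 0.169) on the scaled values and 0.02 without scaling. Neither value is a rise beyond the spread between arrays.

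The CIDE genes each had a single probe, and none was called. Cideb, the form that hepatocytes make in healthy liver, stood at 2.60, 2.04, 2.67 and 2.69 on the STD arrays and at 2.35, 1.66, 2.17 and 2.26 on the ATH arrays. Replicate 2 was the lowest in both diets. Its log2 fold change was -0.40 (SE 0.21, limma adjusted p = 0.237), and 0.05 without scaling. Cidea, best known from brown fat, stood at -3.01, -2.20, -2.19 and -3.54 on the STD arrays and at -3.41, -3.02, -3.11 and -3.48 on the ATH arrays, well above background on all 8. Its log2 fold change was -0.52 (SE 0.30, 95% interval -1.21 to 0.16, limma adjusted p = 0.283).

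Cidec, also called Fsp27, enlarges droplets in adipocytes and in fatty liver. It varied more within a diet than between the diets. The STD arrays held -0.72, -0.82, 0.87 and -1.08 and the ATH arrays -0.96, -1.12, 0.65 and -0.70. Replicate 3 stood above the other 3 arrays in both diets by over 1 log2 unit. The log2 fold change was -0.10 (SE 0.50, 95% interval -1.23 to 1.04, limma adjusted p = 0.918). This interval holds both a doubling and a fall of like size. With arrays paired by number the estimate was the same and its 95% interval was -0.48 to 0.29 (limma adjusted p = 0.693). That pairing was taken up from a correlation in these same data, so the narrower interval does not exclude a doubling. The fold change turned to 0.34 without STD replicate 3 and was 0.35 without scaling. On STD replicate 3 Plin4, a perilipin of adipocytes, and Cfd, the adipocyte protease adipsin, also stood high. Plin4 was at 1.71 there and between -0.09 and 0.10 on the other STD arrays, and Cfd was at 0.64 there and between -1.78 and -1.30 on the others. On ATH replicate 3, Plin4 was at 0.76 and Cfd at -0.71, against 0.24 to 0.57 and -1.64 to -1.36 on the other ATH arrays. The other adipocyte genes varied. Plin1 was lowest on STD replicate 3 among the STD arrays (-5.39), though it was well above background on only 4 of the 8 arrays. Retn was at -3.64 on STD replicate 3, against -4.10, -4.25 and -3.05 on STD replicates 1, 2 and 4. Slc2a4 stood at -3.21 there against -3.42 to -3.36, and Fabp4 was lowest there (2.26). Adipoq was at -3.18 on STD replicate 3, against -3.72 to -3.28 on the other STD arrays, and at -4.14 on ATH replicate 3, against -4.28 to -3.57. Arrays numbered 3 share a position on their slides. The part of position or of adipocyte RNA in the Cidec values was not tested.

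**Figure D3:**
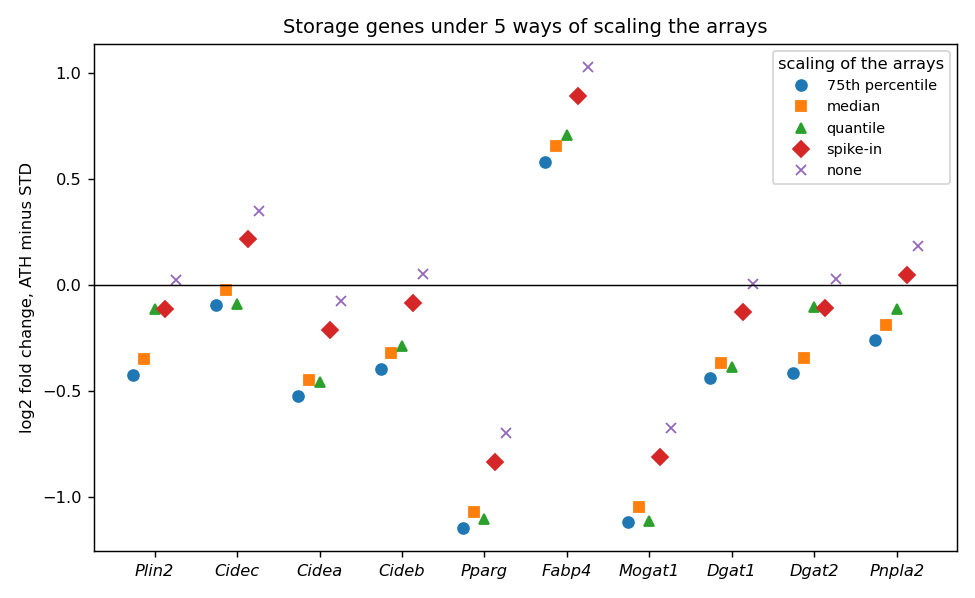
Log2 fold change (ATH minus STD) of the brightest probe of each storage gene under 5 ways of scaling the arrays, given by the marker shapes. Pparg, Mogat1 and Cidea stay below 0 and Fabp4 above 0 under all 5. Plin2, Cidec, Cideb, Dgat1, Dgat2 and Pnpla2 lie above 0 without scaling, Cidec the farthest of these at 0.35.

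A difference between 2 genes taken on the same array does not change with a scaling constant, so 11 pairs of storage genes, chosen by role with their values already known, were compared that way. With 4 arrays against 4 the exact permutation test (two-sided, 70 assignments) cannot give a p below 0.0286, and over 11 pairs no adjusted p fell under 0.05. Of the pairs, 4 stood wholly apart between diets at that smallest p, with a Benjamini-Hochberg value of 0.0786. Fabp4 set against Pparg gave a difference between diets of 1.73, the within-array difference being 0.49 to 0.82 on the STD arrays and 2.17 to 2.66 on the ATH arrays. Fabp4 against Plin2 gave 1.01, and Pparg against Plin2 gave -0.72. Mogat1 against Dgat2 gave -0.70. Mogat1 against Dgat1 gave -0.68 with an overlap between diets (exact permutation p = 0.0857, adjusted 0.189). Dgat1 against Dgat2 gave -0.02 (exact permutation p = 0.971, adjusted 0.971), with differences of -6.32 to -5.88 on the STD arrays and -6.51 to -5.77 on the ATH arrays. The lipase Pnpla2 against the synthesis genes gave 0.18 for Dgat1 and 0.16 for Dgat2 (exact permutation p = 0.257 and 0.343, adjusted 0.471 and 0.539). The 3 CIDE pairs gave sizes of -0.43 to -0.13, with an adjusted exact permutation p between 0.668 and 0.943.

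**Figure D4:**
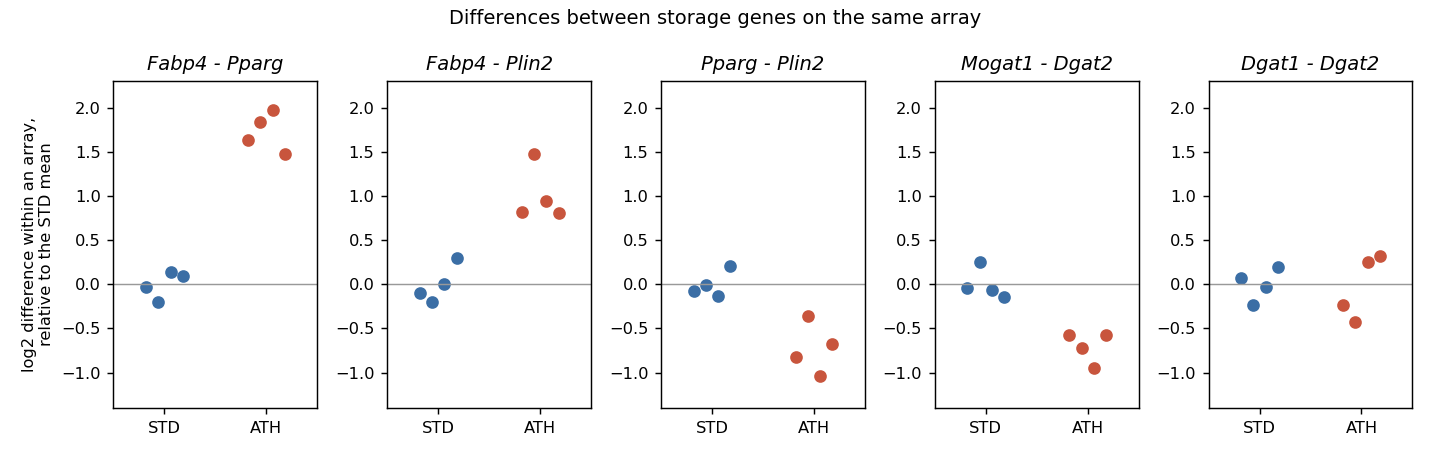
Difference in log2 signal between 2 storage genes on the same array, set to a mean of 0 over the STD arrays, for 5 of the 11 pairs; each point is an array, STD in blue and ATH in red. The ATH arrays lie wholly above the STD arrays for Fabp4 against Pparg and against Plin2, wholly below for Pparg against Plin2 and Mogat1 against Dgat2, and among them for Dgat1 against Dgat2.

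The array profiles of the storage genes were set against those of all other named genes, each centred on its own mean over the 8 arrays, and the 3 nearest by root mean square (RMS) difference were taken. Nearest to Mogat1 were Asl, which makes arginine in the urea cycle, at 0.0872 log2 units, then Cmbl at 0.0915 and the liver glutaminase Gls2 at 0.109. Gls2 was also among the nearest to Pparg at 0.15, behind Kbtbd12 at 0.142 and ahead of the xylulose reductase Dcxr at 0.158. Fabp4 lay nearest to Apoc2, the lipoprotein lipase cofactor, at 0.0908, then Dipk2a and Mamdc2. For Plin2 they were Krtap31-1, Dym and Rtf2, for Dgat1 Dohh, Rptor and Dvl1, for Dgat2 Ctsf, Gatb and Dlat, and for Pnpla2 Atg2a, Bfar and Ubap1. For Cideb they were Cdc42bpb, Gpaa1 and Tmem259 at 0.0721 to 0.0924. Cidea (Olfr356, Fbxo41 and 4930552P06Rik, 0.225 to 0.23) and Cidec (Olfr397, Gdf9 and Hspb1, 0.268 to 0.333) had no profile so close. These distances describe 8 arrays that share 2 diets and 2 slides, and they were not tested.

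PPAR-gamma binds DNA with RXR at a direct repeat of the half-site AGGNCA (N is any base) with 1 base between the copies. The RefSeq promoter table of GRCm38.p6, which gives 250 bases before and 50 after a gene's start, held 9 windows for 6 of the storage genes, namely Mogat1, Plin2, Cideb, Cidec, Pnpla2 and Pparg. The direct repeat was searched on both strands and was in 0 of the 9 windows, against 0.381% of the 32851 windows of all genes. At that share 0 of 9 would be usual for any set of genes, so no conclusion is drawn from it. Cidea, Dgat1, Dgat2 and Fabp4 were not matched to a window. The single half-site AGGTCA, which by itself is common, was in 3 of the 9 windows (1 of Plin2 and 2 of Pparg) against 16.3% of all windows. Any direct repeat may include this half-site. The remaining Pparg window, at chr6:115421816-115422115, held no AGGTCA. The 250 bases before the start are shown for the 2 genes that fell, for Mogat1 at chr1:78510810-78511059 and for the 2 Pparg starts that hold AGGTCA, at chr6:115360894-115361143 and chr6:115362099-115362348, all on the plus strand. Capitals mark AGGTCA.
Mogat1: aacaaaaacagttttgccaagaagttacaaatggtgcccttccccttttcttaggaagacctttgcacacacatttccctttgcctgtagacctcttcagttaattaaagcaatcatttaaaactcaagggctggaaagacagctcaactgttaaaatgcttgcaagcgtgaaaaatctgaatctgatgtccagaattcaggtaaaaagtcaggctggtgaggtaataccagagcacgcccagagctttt
Pparg, first start: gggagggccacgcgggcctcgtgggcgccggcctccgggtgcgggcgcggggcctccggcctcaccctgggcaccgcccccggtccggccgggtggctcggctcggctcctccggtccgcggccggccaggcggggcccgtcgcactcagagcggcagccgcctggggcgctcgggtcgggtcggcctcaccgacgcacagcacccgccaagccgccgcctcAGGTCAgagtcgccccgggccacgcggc
Pparg, second start: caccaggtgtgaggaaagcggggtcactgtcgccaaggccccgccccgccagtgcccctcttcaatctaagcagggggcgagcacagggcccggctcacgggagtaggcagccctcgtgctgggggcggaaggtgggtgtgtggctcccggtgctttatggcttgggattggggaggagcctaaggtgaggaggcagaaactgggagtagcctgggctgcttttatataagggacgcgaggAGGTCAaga

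The Mogat1 stretch held no AGGTCA on either strand, and in the Pparg stretches it lay near the end, close to the start of transcription. Other forms of AGGNCA standing alone were not marked. These matches describe letters in a window only. The Pparg probe lies at chr6:115515909-115515968 of mm7, on the plus strand, as listed in the array files.

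Beyond these genes, 53 other genes of the storage pathway were read in the same fit, all with a detected probe. Of them 10 were called at an adjusted p under 0.05, 8 lower and 2 higher, against 9.35% of all genes in either direction. Their median log2 fold change was -0.37, and 43 of the 53 had a lower mean on the ATH diet, beside 65.1% of all genes. Without scaling that count was 22 of 53, beside 18.3% of all genes. The replicate block named beside some of the genes below is a fit that pairs the arrays of the same number.

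Among 15 other genes of the droplet surface 2 were called, both lower. Fitm1, of the FIT proteins that help droplets bud from the endoplasmic reticulum, stood at 0.18, 0.36, 0.63 and 0.16 on the STD arrays and at -0.86, -1.15, -1.22 and -0.85 on the ATH arrays. The 2 diets lay apart by more than the spread within either. Fitm1 had a log2 fold change of -1.36 (SE 0.16, limma adjusted p = 0.00548), and it was called under all 5 other scalings. Aup1, a droplet protein of the protein degradation machinery, had a fold change of -0.48 (limma adjusted p = 0.0451, and 0.0611 with the replicate block). Without scaling its change was -0.04. The other perilipins did not pass. Plin5, the perilipin of oxidative tissues, had a fold change of -0.66 (limma adjusted p = 0.0654). Hilpda, an inhibitor of adipose triglyceride lipase, had 0.64 on its brightest probe (limma adjusted p = 0.0654) and 0.73 on the other (limma adjusted p = 0.0455, and 0.0688 with the replicate block). G0s2, another inhibitor of that lipase, had -0.80 (SE 0.42, limma adjusted p = 0.246).

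Among 15 other genes of triglyceride synthesis 3 were called, all lower. Acsl1 encodes the main acyl-CoA synthetase of liver, which activates fatty acids. It stood at 7.65, 7.73, 7.43 and 7.24 on the STD arrays and at 6.84, 6.83, 6.32 and 5.84 on the ATH arrays, without overlap. Its log2 fold change was -1.05 (SE 0.24, limma adjusted p = 0.0362), and its other 2 probes gave -1.26 each. Acsl5, another acyl-CoA synthetase, had a change of -0.78 (SE 0.17, limma adjusted p = 0.0343, and 0.0523 with the replicate block). Gpam, the mitochondrial acyltransferase that starts glycerolipid synthesis, had a change of -0.96 (SE 0.22, limma adjusted p = 0.0365). Each of the 3 was called under 2 of the 5 other scalings, and their direction held in all. Mogat2, the intestinal relative of Mogat1, had a change of -1.34 (SE 0.37) that did not pass (limma adjusted p = 0.0572), and passed with the replicate block (limma adjusted p = 0.0373). The phosphatase Lpin1 stood at 3.38 on ATH replicate 3 and between 0.62 and 0.98 on the other ATH arrays.

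Among 7 other genes of lipolysis 1 was called. Ces1d, a carboxylesterase that hydrolyses hepatic triglyceride, had a log2 fold change of -0.90 (SE 0.23, limma adjusted p = 0.0487, and 0.0569 with the replicate block), and -0.45 without scaling (limma adjusted p = 0.102), and it was called under 1 of the 5 other scalings. Abhd5, the coactivator of the Pnpla2 product, had -0.55 (limma adjusted p = 0.101), and the hormone-sensitive lipase Lipe -0.57 (limma adjusted p = 0.0562) on its brightest probe and -0.71 (limma adjusted p = 0.0364) on the other.

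Among 9 genes of fatty acid uptake and binding 4 were called, 2 in each direction. Lpl, the lipase that frees fatty acids from circulating lipoproteins, rose the most. It stood at 1.55, 1.29, 1.81 and 1.15 on the STD arrays and at 3.40, 3.46, 4.07 and 4.12 on the ATH arrays. The lowest ATH array lay well above the highest STD array. Its log2 fold change was 2.31 (SE 0.22, limma adjusted p = 0.00364), a 4.97-fold rise, and 2.42 on its other probe. Adult hepatocytes make little Lpl, and macrophages make it. Within the ATH diet it was highest on replicates 3 and 4, as was the macrophage sum given above. The part of macrophages in this rise was not tested. Fabp2, the intestinal fatty acid binding protein, rose by 1.39 (SE 0.30, limma adjusted p = 0.0327), from 4.51 to 5.78 on the STD arrays to 6.23 to 7.03 on the ATH arrays. Fabp1, the abundant form of liver, fell by 0.48 on the log2 scale (limma adjusted p = 0.0464, and 0.0705 with the replicate block), and by 0.03 without scaling. Slc27a4, a fatty acid transport protein, had a change of -0.68 (SE 0.15, limma adjusted p = 0.0369) on its brightest probe. On that probe it was -0.24 without scaling (limma adjusted p = 0.363), with a call under 2 of the 5 other scalings. Its other probe gave -0.38 and did not pass (limma adjusted p = 0.129). Cd36, a fatty acid translocase, had 0.10 (SE 0.16, limma adjusted p = 0.729).

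Of 7 partners of PPAR-gamma 0 were called by limma, with 3 at an unadjusted p under 0.05, beside 30.6% of all genes. On the scaled values all 7 had a lower mean, against 2 of 7 without scaling and 4 of 7 with spike-in scaling, with log2 fold changes from -0.55 for Cebpa, the adipogenic factor that also acts in hepatocytes, to -0.11 for the coactivator Ppargc1b. Rxra, the binding partner of PPAR-gamma, had -0.32 (SE 0.13, limma adjusted p = 0.144), and the related receptor Ppara -0.32 (SE 0.31, limma adjusted p = 0.523).

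**Figure D5:**
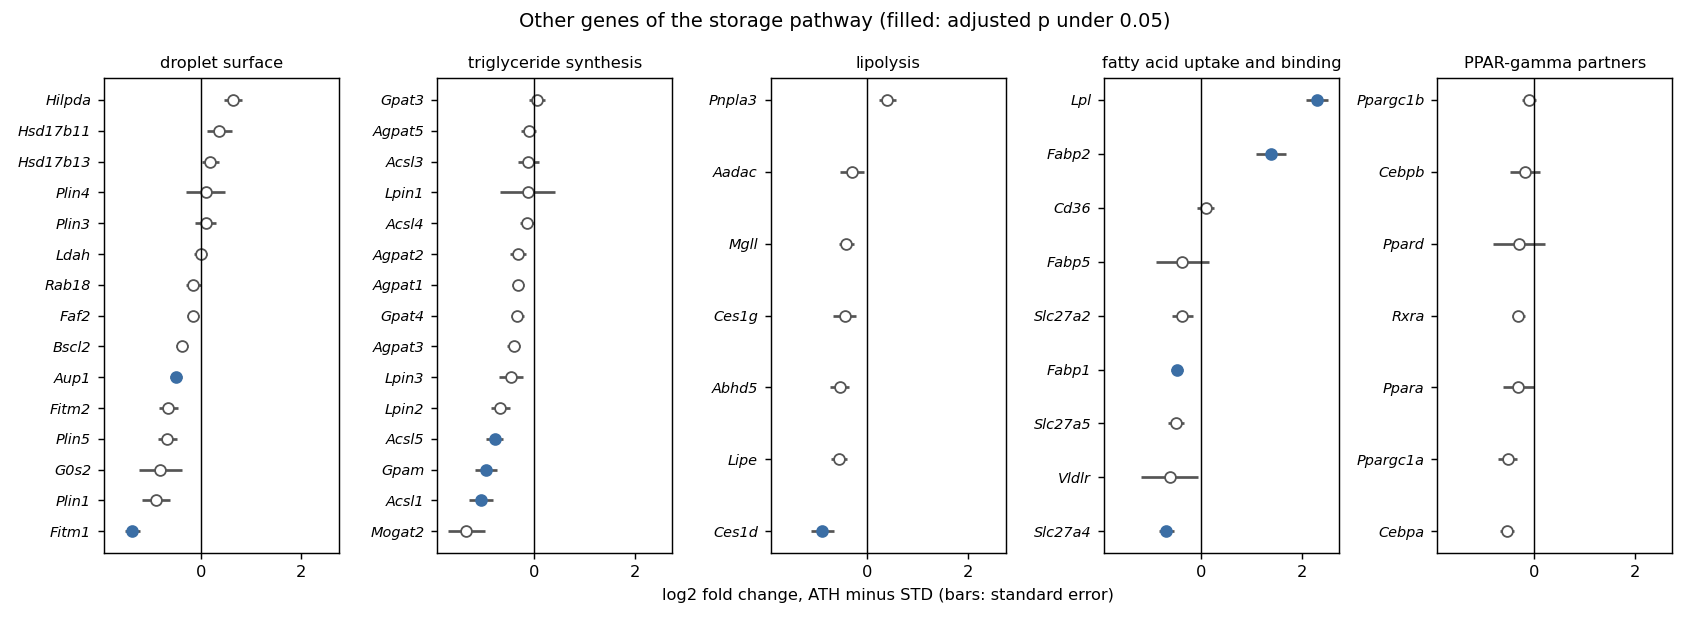
Log2 fold change (ATH minus STD) with its standard error for the brightest probe of each of the 53 other storage pathway genes, by role; filled points passed an adjusted p under 0.05. Lpl and Fabp2 lie to the right, 8 filled genes lie to the left, and the partners of PPAR-gamma all lie to the left of 0 without passing.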

How the data were processed

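Liver RNA of 4 STD and 4 ATH mice was measured on 8 arrays, 1 per mouse, grouped by the diet in the labels. Scanner images were read by the authors with Agilent Feature Extraction 9.5 at its 1-color defaults, which subtract the background and detrend, and the deposited intensity used here is its processed signal. A second deposited table holds log2 values from the authors' GeneSpring workflow and served as an alternative. That table matched the scanner's log2 values plus a constant per array and per probe for 99.95% of the detected probes, within 0.001 on all 8 arrays. Array files give no counts, so the number of arrays limits the precision.

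Outlier-flagged spots were left out, spots of a probe were averaged, and each array's 75th percentile over probes was subtracted. A probe was detected when most of its spots were well above background, positive and significant on at least 3 of 4 arrays of either diet. Diet was tested with limma 3.58.1 in R 4.3.3 (two-sided, Benjamini-Hochberg over 31053 probes, called under 0.05), after a test of the steps on simulated data. For a gene, the probe with the highest mean over 8 arrays was used; tables and plots used Python 3.11.15, numpy 2.4.6, scipy 1.17.1, pandas 2.3.3 and matplotlib 3.10.9. Probes were named by accession (22951), symbol (6659) or older name through a RefSeq gene table, and 8455 kept the file's name only and stayed out of the gene counts.

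The 10 genes, the pathway and marker lists and the pairs were chosen with earlier results of these data known. Named genes are the 10, the pathway genes called, others named after their values were seen, marker genes, and the 3 nearest profiles per gene. The labels give separate mice within a diet, and p-values measure the spread between these arrays. Deviations from the diet means of same-numbered arrays, which share a slide position, correlated at 0.1002, 0.2296, 0.1815 and 0.1766 across probes. Those of unlike-numbered arrays correlated at -0.2512 to 0.1755, so the 2 ranges overlapped. Arrays were treated as paired by number in 1 alternative, the replicate block. Others were scaling (median, quantile, spike-in, none, percentile over spots), normexp with an offset of 50, the detection filter, the threshold, the unequal-variance test of the methods, and each array left out. Other genotypes of the study were not analysed here.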

Additional observations from a re-analysis of the deposited data

Results flagged for a closer look

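Of 36 sets of 4 arrays (18 probes on 2 diets), 2 held an array farther from the others than Dixon's critical value for 4 samples allows, and chance alone gives about 1 in 20. Cideb on the STD diet had replicate 2 at 2.04 and the other arrays at 2.60 to 2.69, a gap of 0.861 of the range. Probe A_52_P681771 of Pnpla2 on the ATH diet had replicate 2 at 0.15 and the other arrays at 0.99 to 1.12, a gap of 0.868 of the range. The ATH replicate 2 value of the brighter Pnpla2 probe was also the lowest of its diet.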

How the results depend on the processing

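Over 20 alternatives for each of the 10 genes, 174 of 200 values kept their direction and their side of the threshold. Values turned sign without scaling for Plin2 (0.023), Cidec (0.352), Cideb (0.0504), Dgat1 (0.0065), Dgat2 (0.0295) and Pnpla2 (0.186), and with spike-in scaling for Cidec (0.216) and Pnpla2 (0.0496). With 1 array left out, Cidec ranged from -0.4894 (no ATH replicate 3) to 0.339 (no STD replicate 3). None of these values was called. The storage genes called numbered 2, and 4 with normexp (Fabp4 and Dgat1 added), 0 with the methods' t-test, 0 at an adjusted p under 0.01, and 0 to 2 with an array left out, being 0 without STD replicate 1, 3 or 4 or ATH replicate 4. The pathway genes called numbered 10, and 4 with median scaling, 5 with spike-in scaling, 22 with normexp, 2 with no detection filter, 0 with the methods' t-test, 2 at an adjusted p under 0.01, and 2 to 10 with an array left out (2 without STD replicate 1, 3 or 4 or ATH replicate 4, 3 without ATH replicate 3, 4 without ATH replicate 1, 6 without STD replicate 2). The probes called numbered 2482, and 7363 without scaling, 6392 with normexp, 1086 with no detection filter, 22 with the methods' t-test, 1322 with the replicate block, 164 at an adjusted p under 0.01, and 394 to 3978 with an array left out. The block kept both storage gene calls and called 7 pathway genes. Aup1, Acsl5, Ces1d and Fabp1 lost their call with it, and Mogat2 gained one. The Hilpda probe that had passed no longer did. The cause of these changes was not tested. Leaving out an array also lowers the number of samples, and without ATH replicate 2 the probes called rose from 2482 to 3978. Slide and diet coincide, so no slide block could be fitted.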
